A study of Homo sapiens with 6 samples.

Results

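The 38 genes described here encode the enzymes that make, recycle and balance the building blocks of RNA and DNA. They were taken by name from the deposited table, which holds 28395 genes, and all 38 were found. HCC827 is a line of lung adenocarcinoma cells in which the epidermal growth factor receptor (EGFR) is mutant, and the cells received either the solvent DMSO or 1 μM of the EGFR kinase inhibitor erlotinib for 24 h. Polyadenylated RNA was sequenced in 6 libraries, 3 with DMSO (libraries 1 to 3) and 3 with erlotinib (libraries 4 to 6). Between 20760204 and 24641819 reads per library fell on genes. The study's methods speak of independent repeats for its experiments in general, and no source used here says so of these libraries, so the p-values measure only the spread between them, which may be technical. The cells are 1 cell line, and the 8 epithelial markers examined were detected in all 6 libraries, and with erlotinib 4 of them fell (50%, against 35.4% of all genes tested) and 2 rose (25%, against 35.3%), by the test described below. The keratin genes KRT7, KRT8, KRT18 and KRT19 had log2 fold changes of -0.63, -0.83, -1.25 and -0.39, the lung lineage genes NKX2-1 and NAPSA of 1.53 and 1.92, and EPCAM (-0.05) and CDH1 (0.14) did not pass. CDH1 lay close to the threshold (limma adjusted p = 0.0531). Among the alternatives described below, 3 epithelial markers rose with edgeR, DESeq2, limma-voom, total-count scaling, a pseudocount of 0.1 and without DMSO library 2. Among 8 markers of other cell types, 4 were too low to be tested, with MS4A1 at 0 in every library and PTPRC, COL3A1 and CD3E at mean signals under 5. Of the 4 tested, 3 rose, or 2 where at least 10 reads in every library were asked for or erlotinib library 5 was left out. CD68, a lysosomal protein of macrophages that many other cells make, was the most abundant, with a mean signal of 2898 with DMSO and 3394 with erlotinib (log2 fold change 0.23), COL1A1, a collagen chain, went from 77.7 to 216 (1.47), and PECAM1 (-0.55) did not pass. VWF, an endothelial clotting factor, had a signal of 3.40, 0.929 and 7.49 with DMSO and 35.1, 25.7 and 21.5 with erlotinib, and it was tested only because its erlotinib values brought its mean over 10. The summed signal of the 8 markers was 2864, 2874 and 3263 with DMSO and 3509, 3779 and 3677 with erlotinib, and their part in the results was not tested.

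Cells build purines on a ribose phosphate taken from phosphoribosyl pyrophosphate (PRPP), and pyrimidines as a ring that is joined to PRPP later. Ribonucleotide reductase removes an oxygen from ribonucleotides to give the deoxynucleotides of DNA, thymidylate synthase supplies the DNA-specific base thymine, and folate cofactors carry the carbon units that several of these reactions need. Salvage enzymes return free bases and nucleosides to the same pools at a lower cost in energy.

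Most of the pathway was lower after erlotinib. Values are given as signal, which is the number of reads on a gene divided by the size factor of its library, and a fold change is the difference of the group means of log2(signal + 1), erlotinib minus DMSO, with its standard error (SE) from limma. A gene was taken to have changed at a Benjamini-Hochberg adjusted p-value under 0.05 over all genes whose mean signal reached 10, which were 14215. Of the 38 members 37 were tested. The signal of 33 of them fell, a share of 89.2%, whereas 35.4% of all genes tested fell. Only TK2 and CTPS2 rose, a share of 5.41% against 35.3% of all genes, and RRM2B and UCK1 did not pass the threshold. A fall of at least 1 log2 unit, which is a halving, was seen for 21 members against 10.8% of all genes, and a rise of that size for TK2 alone against 17% of all genes. Every erlotinib library lay below every DMSO library for 33 members and above for 2, against 36.9% and 36.7% of all genes. The median log2 fold change was -1.26 over the members and 0.02 over all genes tested.

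The fall was large enough to be seen in the summed reads of the pathway. The members together took 0.36%, 0.38% and 0.372% of all counted reads with DMSO and 0.17%, 0.171% and 0.17% with erlotinib, so that the groups did not overlap. The tested member with the fewest reads was TYMS, with at least 46 in every library. SAMHD1, which breaks deoxynucleotides down, was not tested, because no library had more than 5 reads on it. Its signal was 4.54, 1.86 and 5.35 with DMSO and 0, 4.95 and 3.74 with erlotinib, values at which no difference could be detected.

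**Figure D1:**
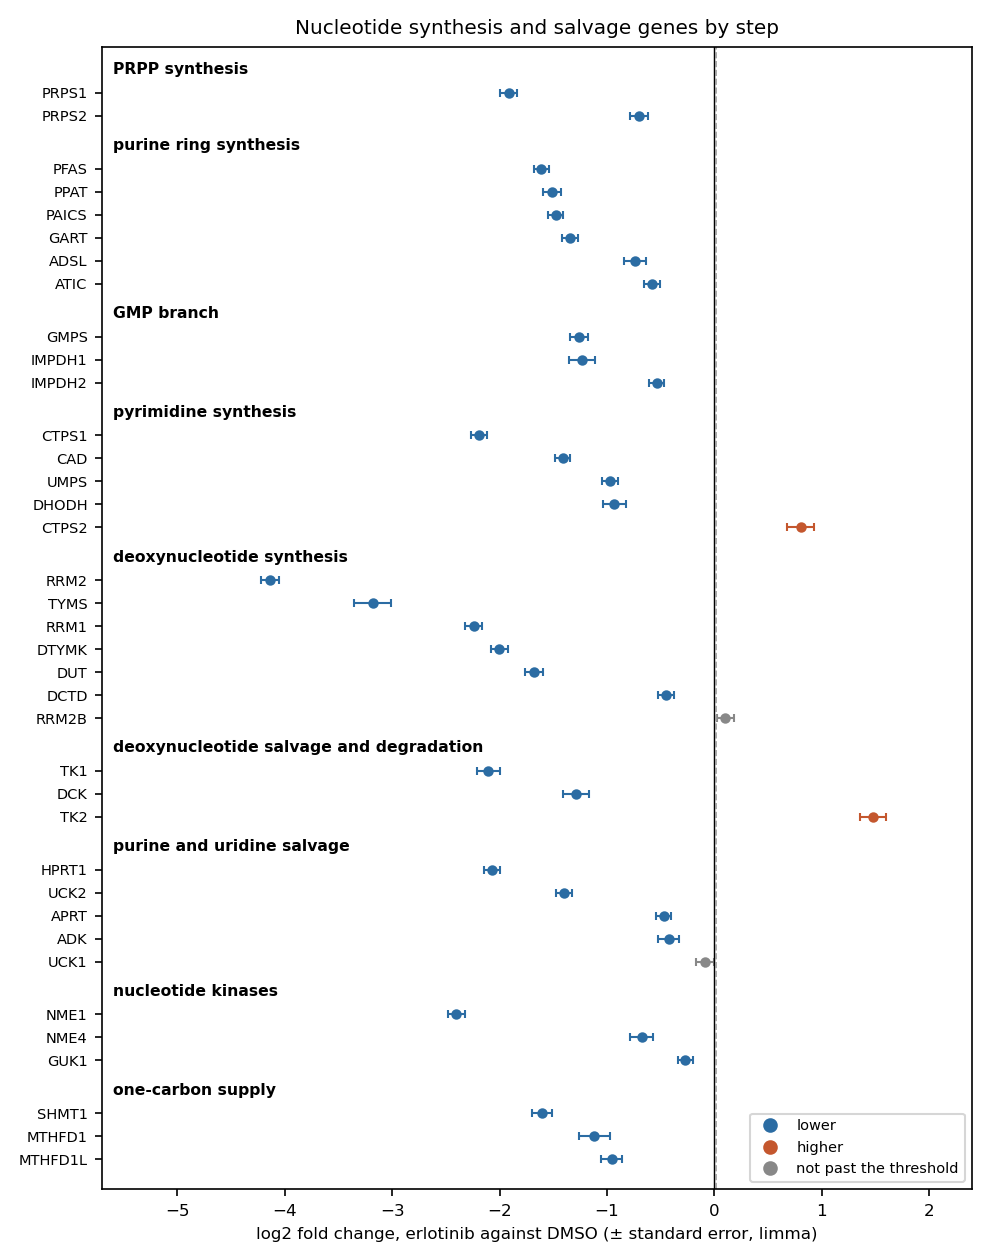
Log2 fold changes of the 37 tested members, erlotinib against DMSO, with bars of 1 standard error from limma (n = 3 libraries a group), arranged by step and within a step from the lowest value to the highest. The dashed line marks the median of all genes tested, and 33 members lie to its left past the threshold, with RRM2 lowest at -4.14 and TK2 highest at 1.48.

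Both members that encode PRPP synthetase, which makes the activated ribose for purines, pyrimidines and base salvage, fell. The PRPS1 signal was 2601, 2877 and 2911 with DMSO and 723, 723 and 780 with erlotinib, a log2 fold change of -1.91 ± 0.079 (SE; limma adjusted p = 1.37e-14). The PRPS2 signal was 1818, 2129 and 1773 with DMSO and 1157, 1207 and 1149 with erlotinib, a log2 fold change of -0.70 ± 0.083 (limma adjusted p = 1.95e-07). The groups did not overlap for either gene.

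All 6 genes of purine ring synthesis fell, with a median log2 fold change of -1.41. PFAS, which makes the amidine intermediate of the ring, had the largest fall, from 3765, 3518 and 3817 with DMSO to 1202, 1184 and 1248 with erlotinib (log2 fold change -1.61 ± 0.071, limma adjusted p = 3.95e-14). PPAT, the amidotransferase that commits PRPP to purines, followed with 1835, 2145 and 1843 against 674, 666 and 692 (-1.51 ± 0.085, limma adjusted p = 1.78e-12). The erlotinib values of both genes were close to each other and lay far below the DMSO values. PAICS, which carries 2 of the ring reactions, and GART, which carries 3, had log2 fold changes of -1.48 ± 0.067 and -1.34 ± 0.078. The last steps moved less, with -0.74 ± 0.10 for ADSL, the adenylosuccinate lyase, and -0.58 ± 0.076 for ATIC, which closes the ring to IMP. In the ordered values a gap separated these 2 genes from the other 4, and no test of the steps against each other was made.

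Promoters from RefSeq on GRCh38.p14, 250 bases before to 50 bases after the start, were matched to 35 of the 38 members, and ADSL, IMPDH2 and RRM2B had none. They were searched on both strands for 4 kinds of letters, chosen for factors known in growth and cell cycle control, and no matches of different motifs overlapped. The E-box letters CACGTG, bound by MYC and related factors, were in the promoters of 7 members (20%), against 9.92% of 11130 promoters of tested genes and 7.43% of all 27305 promoters. The 7 were PPAT, ATIC, DHODH, DCK, NME1, MTHFD1 and MTHFD1L. Those of the purine and pyrimidine steps are shown because they place the same 6 letters before genes that fell by different amounts, with CACGTG in capitals and each sequence read on the strand of its gene. The PPAT stretch is chr4:56435780-56435809 on the minus strand, inside an annotated exon of the neighbouring gene PAICS, which is read the other way. The ATIC stretch is chr2:215312001-215312030 on the plus strand, in an exon of longer ATIC transcripts, and the DHODH stretch is chr16:72008565-72008610 on the plus strand, partly in an exon of a longer DHODH transcript.
PPAT: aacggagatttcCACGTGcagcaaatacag
ATIC: gggccggcgggcCACGTGataagcccggaa
DHODH: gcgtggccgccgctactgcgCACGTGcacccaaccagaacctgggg
Of the members lower by at least 1 log2 unit, 4 of 21 held the E-box letters (19%), and of the other members 3 of 14 (21.4%).

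In the branch to GMP all 3 genes fell. GMPS, the GMP synthetase, had a signal of 2002, 2051 and 1877 with DMSO and 870, 873 and 740 with erlotinib (log2 fold change -1.26 ± 0.085, limma adjusted p = 3.82e-11). IMPDH1, one of the pair of IMP dehydrogenases that limit guanine nucleotide synthesis, had 1579, 1117 and 1556 against 642, 517 and 637 (-1.23 ± 0.12, limma adjusted p = 1.04e-08). IMPDH2 had 2377, 2291 and 2331 against 1623, 1568 and 1632 (-0.54 ± 0.07, limma adjusted p = 8.28e-07). IMPDH1 was low in DMSO library 2 and in erlotinib library 5 compared with the other libraries of its group, and still the groups did not overlap for any of the 3 genes. In GENCODE 10 pseudogenes are named after IMPDH1, the most among the members, and reads that map to several places were not counted.

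The pyrimidine step had 4 genes that fell and 1 that rose. CTPS1, one of the CTP synthetases, had a signal of 2920, 3003 and 2853 with DMSO and 663, 648 and 611 with erlotinib (log2 fold change -2.19 ± 0.077, limma adjusted p = 1.17e-15). CAD, whose product carries the first 3 reactions of the pathway, had 4560, 4006 and 4406 against 1590, 1616 and 1664 (-1.41 ± 0.071, limma adjusted p = 3.11e-13). CTPS2, the paralog of CTPS1 at chrX:16587999-16712910, went the other way. The CTPS2 signal was 255, 314 and 346 with DMSO and 529, 504 and 556 with erlotinib (0.80 ± 0.12, limma adjusted p = 7.22e-06), and all erlotinib values lay above all DMSO values. UMPS, which joins the ring to PRPP and makes UMP, and DHODH, the mitochondrial dehydrogenase of the pathway, had log2 fold changes of -0.97 ± 0.075 and -0.93 ± 0.11. The median of the 5 genes was -0.97.

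The largest falls were in deoxynucleotide synthesis, where 6 of 7 genes fell and the median over the step was a log2 fold change of -2.0. RRM2, the small subunit of ribonucleotide reductase that cells make in S phase, had a signal of 7922, 9233 and 7831 with DMSO and 499, 491 and 425 with erlotinib (log2 fold change -4.14 ± 0.084, limma adjusted p = 4.65e-19). Its mean signal was 17.7-fold higher with DMSO than with erlotinib, and only 0.0915% of all genes tested had a log2 fold change as low or lower. TYMS, the thymidylate synthase, had 470, 449 and 389 against 43.4, 45.5 and 52.4 (-3.18 ± 0.17, limma adjusted p = 8.65e-13). In both genes each erlotinib library was far below the lowest DMSO library. RRM1, the large subunit of the reductase, had 3122, 3405 and 3044 against 699, 633 and 690 (-2.24 ± 0.079, limma adjusted p = 1.31e-15), a fall of 4.74-fold in mean signal that was smaller than that of RRM2. DTYMK, which phosphorylates dTMP, and DUT, which keeps uracil out of DNA by splitting dUTP, had log2 fold changes of -2.0 ± 0.077 and -1.68 ± 0.082. DCTD, which turns dCMP into the precursor of dTMP, moved least of the 6 at -0.45 ± 0.074.

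RRM2B, the alternative small subunit that is induced by p53 and supplies deoxynucleotides outside S phase, did not pass the threshold. Its signal was 2132, 2460 and 1993 with DMSO and 2413, 2425 and 2207 with erlotinib (log2 fold change 0.10 ± 0.081, limma adjusted p = 0.268), and the groups overlapped. The call depended on the processing, since RRM2B rose with libraries scaled to their total count (0.28, limma adjusted p = 0.00477) and without DMSO library 2 (0.19, limma adjusted p = 0.0116). Of 12 other genes induced by p53, 5 rose (41.7%, against 35.3% of all genes tested) and 5 fell (41.7%, against 35.4%), shares close to those of all genes. The largest rises were in BBC3, which promotes cell death (2.66 ± 0.14), GDF15, a secreted stress factor (1.44 ± 0.15), and TP53I3 (0.97 ± 0.12), and the largest falls in TIGAR, a sugar phosphatase (-1.10 ± 0.10), DDB2, a DNA damage sensor (-0.80 ± 0.15), and SESN1 (-0.53 ± 0.20). The number of falls was 2 with libraries scaled to their total count and 3 at an adjusted p-value under 0.01. CDKN1A, the cell cycle inhibitor p21, had a log2 fold change of -0.01 ± 0.12 and did not pass the threshold.

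Several of these genes are known to be transcribed in S phase, and 15 markers of S phase and proliferation are given beside them. All 15 fell, against 35.4% of all genes tested, with a median log2 fold change of -2.52, led by CDC6 (-4.19 ± 0.099), CCNE2 (-3.16 ± 0.14) and GINS2 (-3.03 ± 0.14), which act at replication origins or at entry into S phase. Their summed signal was 67891, 69358 and 66103 with DMSO and 12842, 12762 and 12548 with erlotinib, and none was at 0. The most abundant was TOP2A with DMSO (mean signal 15877) and MCM7 with erlotinib (3059.5, against 2753.5 for TOP2A). The part of this shift in the values of the nucleotide genes was not tested. In bulk libraries fewer cells in S phase and less RNA per cell cannot be told apart.

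The letters known for E2F factors, searched as TTTCGCGC, TTTGGCGC and TTTCCCGC, were in the promoters of 3 members (PRPS2, TYMS and DCK, 8.57%), against 4.57% of tested genes and 2.79% of all promoters. CCAAT, known for NF-Y, was in 15 (42.9%) against 36.4% and 35.7%, and TTTGAA, known as the CHR element, in UMPS and RRM1 (5.71%) against 9.74% and 15.4%. Only RRM2 and GART held CCAAT at least 3 times (5.71%, against 4.74% and 3.42%). The windows of the 2 genes with the largest falls, and of GART for comparison, are shown with the matches in capitals, ATTGG being CCAAT on the other strand and GCGGGAAA being TTTCCCGC on the other strand. The RRM2 window is chr2:10122596-10122697 on the plus strand, in part inside an exon of a longer RRM2 transcript. The TYMS window is chr18:657594-657641 on the plus strand, its edge inside an exon of TYMSOS on the opposite strand, and the GART window is chr21:33542921-33543035 on the minus strand.
RRM2: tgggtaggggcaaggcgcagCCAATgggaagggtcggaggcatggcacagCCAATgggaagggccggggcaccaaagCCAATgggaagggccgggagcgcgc
TYMS: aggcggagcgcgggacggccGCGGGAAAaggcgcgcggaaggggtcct
GART: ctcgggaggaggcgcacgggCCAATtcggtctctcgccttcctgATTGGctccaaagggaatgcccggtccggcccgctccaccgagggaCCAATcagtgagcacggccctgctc
In RRM2 the 3 copies lie in 1 stretch of 15 bases that is the same each time, agCCAATgggaaggg, with starts 30 and 27 bases apart, and 2 of the 27305 promoters hold that stretch. A match of letters describes the sequence and not the binding of a factor.

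**Figure D2:**
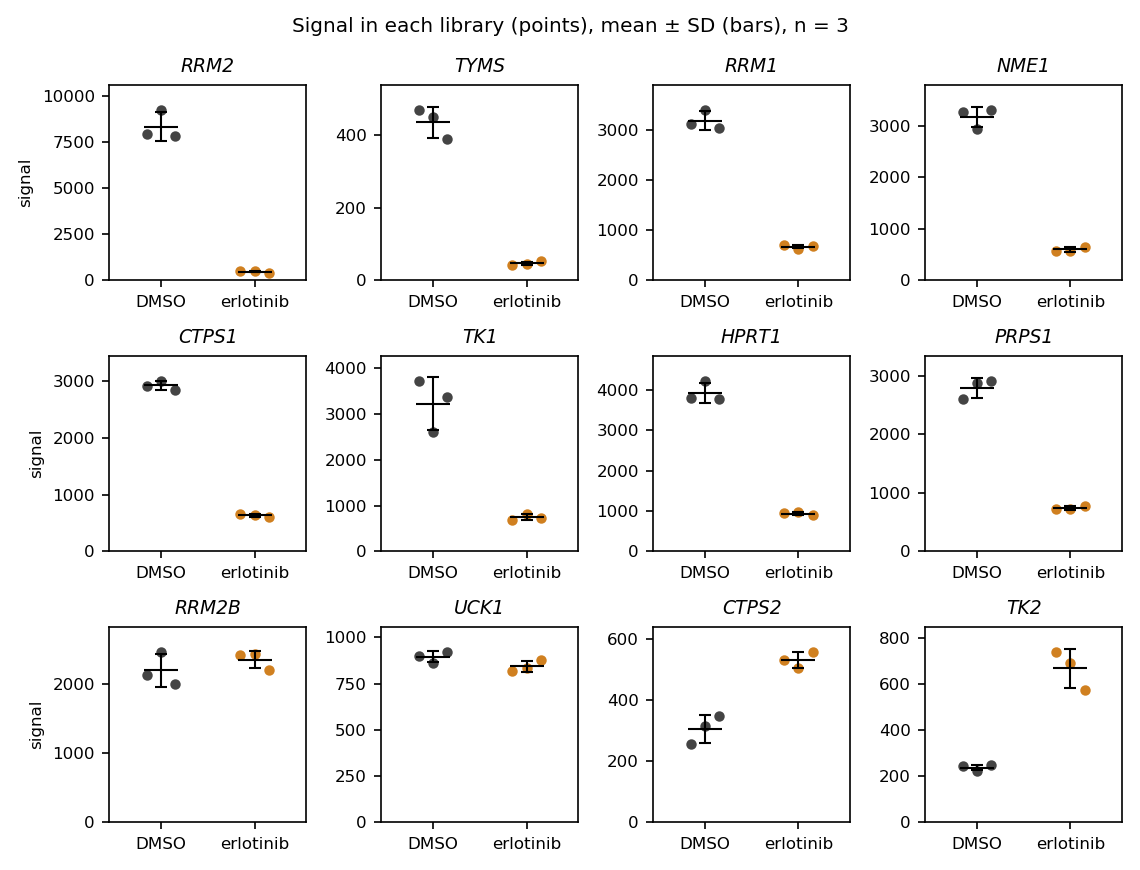
Signal of 12 members in each library (points), with the mean and SD of the 3 libraries of each group (bars), on linear axes that start at 0. For RRM2, TYMS, RRM1, NME1, CTPS1, TK1, HPRT1 and PRPS1 all erlotinib points lie below all DMSO points, for RRM2B and UCK1 the groups overlap, and for CTPS2 and TK2 all erlotinib points lie above.

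In the salvage of deoxynucleosides the cytosolic and mitochondrial thymidine kinases moved in opposite directions. TK1, the cytosolic enzyme of dividing cells, had a signal of 3722, 2603 and 3369 with DMSO and 685, 818 and 732 with erlotinib (log2 fold change -2.10 ± 0.11, limma adjusted p = 2.85e-13). TK2, the mitochondrial enzyme, at chr16:66508003-66550291, had 243, 224 and 247 against 738, 689 and 575 (1.48 ± 0.12, limma adjusted p = 6.79e-10), a mean signal 2.80-fold higher with erlotinib. The TK1 value in DMSO library 2 was the lowest of its group and still above every erlotinib value, and the lowest TK2 value with erlotinib was above every DMSO value. DCK, the deoxycytidine kinase that also activates several nucleoside drugs, fell with a log2 fold change of -1.29 ± 0.12.

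The 5 genes of purine and uridine salvage had the median closest to 0 among the steps with 5 or more members, at a log2 fold change of -0.47. HPRT1, which returns hypoxanthine and guanine to nucleotides, had a signal of 3792, 4213 and 3774 with DMSO and 938, 964 and 896 with erlotinib (log2 fold change -2.07 ± 0.075, limma adjusted p = 1.69e-15). UCK2, the more active of the uridine-cytidine kinases, had 3536, 3547 and 3628 against 1252, 1476 and 1346 (-1.40 ± 0.075, limma adjusted p = 8.14e-13). For both genes all erlotinib libraries lay below all DMSO libraries. UCK1 had 900, 862 and 920 against 819, 833 and 875 (-0.09 ± 0.086, limma adjusted p = 0.382), the groups overlapped, and the sign turned to 0.09 with libraries scaled to their total count (limma adjusted p = 0.339). APRT, the adenine counterpart of HPRT1, and ADK, the adenosine kinase, had log2 fold changes of -0.47 ± 0.07 and -0.42 ± 0.097.

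Of the 3 kinases that raise nucleotides to diphosphates and triphosphates, NME1 moved most. Its signal was 3270, 2946 and 3304 with DMSO and 573, 579 and 648 with erlotinib (log2 fold change -2.40 ± 0.082, limma adjusted p = 7.74e-16). NME4, its mitochondrial relative, had 875, 719 and 821 against 530, 442 and 540 (-0.68 ± 0.11, limma adjusted p = 1.12e-05). The groups did not overlap in either gene. GUK1, the guanylate kinase, had the smallest fall of all members past the threshold (-0.27 ± 0.071, limma adjusted p = 0.00205), and with libraries scaled to their total count it no longer passed (-0.09, limma adjusted p = 0.266).

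The 3 genes of one-carbon supply fell. SHMT1, the cytosolic serine hydroxymethyltransferase that feeds carbon to thymidylate, had a signal of 1242, 1404 and 1356 with DMSO and 402, 468 and 445 with erlotinib (log2 fold change -1.60 ± 0.095, limma adjusted p = 3.95e-12). MTHFD1, the cytosolic enzyme that makes the formyl folate for purines, had 423, 451 and 379 against 173, 233 and 174 (-1.12 ± 0.14, limma adjusted p = 5.51e-07). Erlotinib library 5 was the highest of its group for both genes and was still below all DMSO libraries. MTHFD1L, the mitochondrial source of formate, had a log2 fold change of -0.96 ± 0.097.

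The ratio of the members was compared in 6 pairs of paralogs. The log2 ratio of RRM2 to RRM2B was 1.89, 1.91 and 1.97 with DMSO and -2.27, -2.30 and -2.37 with erlotinib, a difference of -4.24. For TK1 to TK2 it was 3.93, 3.53 and 3.76 against -0.11, 0.25 and 0.35, a difference of -3.58, and for CTPS1 to CTPS2 3.51, 3.25 and 3.04 against 0.32, 0.36 and 0.14, a difference of -2.99. These 3 pairs had the widest differences, and in each all erlotinib ratios lay below all DMSO ratios. The difference was -1.21 for PRPS1 to PRPS2, -0.69 for IMPDH1 to IMPDH2 and 1.31 for UCK1 to UCK2. In all 6 pairs the groups did not overlap. By the signal of single genes, that was so for 36.9% (lower) and 36.7% (higher) of all genes tested. Such a share was not computed for ratios of other gene pairs. No pair passed a test. The two-sided exact permutation test gave p = 0.1 for each, also after adjustment over the 6 pairs, which is the smallest p that 3 libraries against 3 can give.

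Levels of different genes were compared per kb of exon in the MANE Select transcript. RRM2 was above RRM2B with DMSO (2556 against 460 signal per kb) and below it with erlotinib (145 against 492). PRPS1 and PRPS2 changed order in the same way (1351 against 772 with DMSO, 358 against 474 with erlotinib), and UCK2 passed from above UCK1 (744 against 414) to below it (283 against 390). These 3 orders were the same with the union of all exons as the length. IMPDH2 remained above IMPDH1 (1413 against 543 with DMSO, 974 against 229 with erlotinib) and TK1 above TK2 (2258 against 49.3, then 520 against 138). CTPS1 was above CTPS2 in both groups by this length (1030 against 77.1, then 226 against 134), whereas by the union of exons CTPS2 was above with erlotinib (95.7 against 53.6). Over the whole pathway APRT (3580) and NME1 (3566) had the highest levels per kb with DMSO, and APRT (2584) and GUK1 (1896) with erlotinib, while TK2 (49.3) was the lowest tested member with DMSO and TYMS (29.2) the lowest with erlotinib. By the union of exons HPRT1 had the highest level with DMSO (2436). With erlotinib APRT was still the highest (1339), but HPRT1 (578.5) lay above GUK1 (375.1), and MTHFD1 (11.1) lay below TYMS (19.5). The top of the order with DMSO, the place of GUK1 and the bottom with erlotinib therefore depend on the length used.

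**Figure D3:**
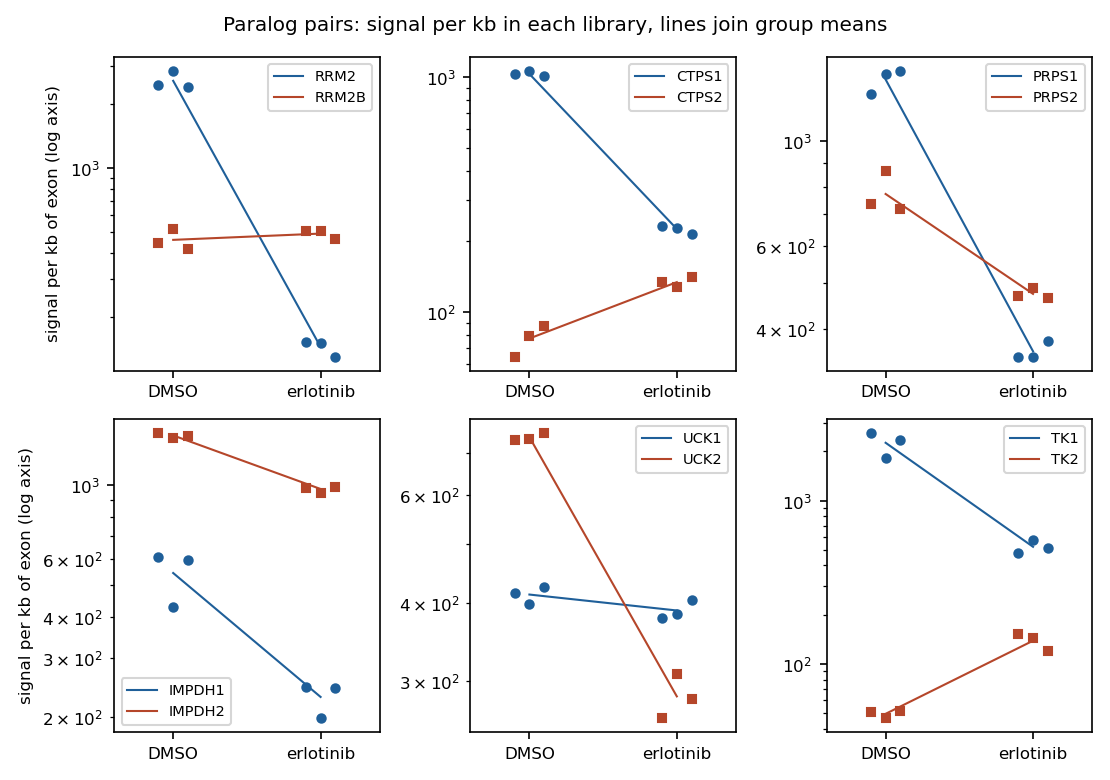
Signal per kb of MANE Select exon for 6 pairs of paralogs in each library (points), on log axes that differ between panels, with lines that join the means of the 3 DMSO and 3 erlotinib libraries. The lines cross for RRM2 and RRM2B, for PRPS1 and PRPS2 and for UCK1 and UCK2, they converge for CTPS1 and CTPS2 and for TK1 and TK2, and they spread for IMPDH1 and IMPDH2.

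Enzymes of the same pathways outside the 38 moved in both directions. Over 71 further genes 59 were tested, of which 28 fell (47.5%, against 35.4% of all genes tested) and 21 rose (35.6%, against 35.3%), and their median log2 fold change was -0.26. The share that rose was that of all genes, and the counts of the single lists below are to be read against the same shares. Among 14 other purine enzymes 5 fell and 7 rose. The largest falls were in PNP, the purine nucleoside phosphorylase (-2.03 ± 0.07), DGUOK, the mitochondrial deoxyguanosine kinase (-0.54 ± 0.093), and AMPD3, an AMP deaminase (-0.50 ± 0.12). The largest rises were in ADSS1, an adenylosuccinate synthase (1.19 ± 0.23), XDH, which makes uric acid (0.94 ± 0.29), and ADA, the adenosine deaminase (0.73 ± 0.19), 3 genes of low signal, with group means of at most 196. Among 6 other pyrimidine enzymes 3 fell and 2 rose. UPP1, the uridine phosphorylase (-1.59 ± 0.10), CDA, the cytidine deaminase (-0.69 ± 0.096), and UPRT (-0.26 ± 0.096) fell, and the rises were in TYMP, the thymidine phosphorylase (1.97 ± 0.12), and DPYD, which starts pyrimidine breakdown (1.31 ± 0.11). Of the falls, that of UPRT lay closest to the threshold (limma adjusted p = 0.0235). The number of falls was 2 with libraries scaled to their total count and at an adjusted p-value under 0.01. It was also 2 without DMSO library 1 and without erlotinib library 4 or 5. The number of rises was 3 with total-count scaling and with no filter.

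Of 13 other nucleotide kinases 6 fell and 6 rose. Among the falls were those of AK4, an adenylate kinase of mitochondria (-1.28 ± 0.067), and of NME2 (-1.12 ± 0.24), whose exons lie next to those of NME1 and are joined with them in a readthrough gene. The largest rises were in CMPK2, a mitochondrial kinase induced by interferon (1.88 ± 0.52), AK9 (1.82 ± 0.23) and AK8 (1.78 ± 0.36), and CMPK2 and AK8 had mean signals under 25 with DMSO. Of 10 nucleotidases and enzymes that clean the nucleotide pool 6 fell and 1 rose. NT5E, which makes adenosine outside the cell, had a log2 fold change of -1.74 ± 0.063, and DCTPP1, a dCTP pyrophosphatase, of -1.44 ± 0.076. The rise was in NT5C, a deoxynucleotidase (0.34 ± 0.10).

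Of 11 other folate and one-carbon enzymes 6 fell and 2 rose, and their median log2 fold change was -0.50. Among the falls were those of MTHFD2, the mitochondrial enzyme of growing cells, with a log2 fold change of -1.38 ± 0.087, and of GGH, which trims folates, with -1.31 ± 0.15. The MTHFD2 signal was 4651, 6035 and 4705 with DMSO and 1978, 1850 and 2042 with erlotinib, and the groups did not overlap.

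Of 5 nucleoside transporters 2 fell and 3 rose. SLC29A1, the main equilibrative carrier of the plasma membrane, had a signal of 1247, 1165 and 1331 with DMSO and 283, 280 and 274 with erlotinib (log2 fold change -2.15 ± 0.098, limma adjusted p = 6.33e-14), and SLC29A2 fell by 0.55 ± 0.097. SLC28A3, a concentrative carrier (2.82 ± 0.32), SLC29A4 (1.89 ± 0.23) and SLC29A3, the carrier of lysosomes (1.79 ± 0.12), rose. With DMSO, SLC28A3 and SLC29A4 were low, with mean signals of 20.465 and 36.242. The number of rises was 2 where at least 10 reads in every library were asked for, and 4 with no filter. The summed signal of the 7 listed transporters, of which 2 were too low to test, was 2541, 2328 and 2726 with DMSO and 1936, 1932 and 1849 with erlotinib.

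**Figure D4:**
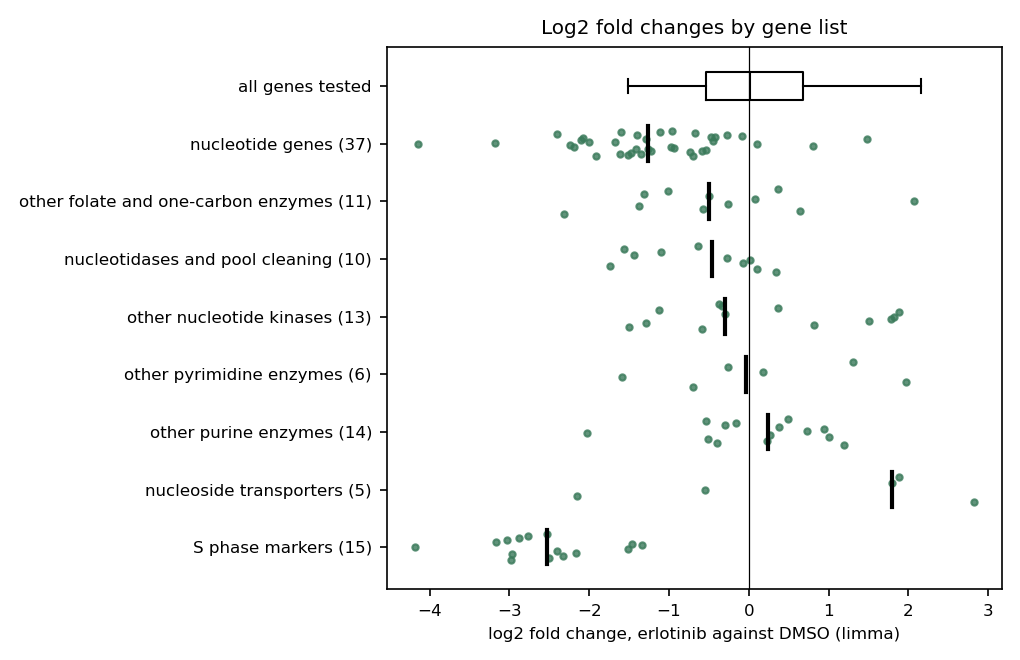
Log2 fold changes of tested genes by list (points, one per gene, with the list's median as a bar), erlotinib against DMSO, under a box with the median, quartiles and 5th to 95th percentiles of all 14215 genes tested. The 37 members have a median of -1.26 and the 15 S phase markers of -2.52, while the other lists of the pathway have points on both sides of 0.

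Several members share exon bases with other genes in GENCODE release 44. TYMS shares 39.9% of its exon bases with ENOSF1 on the opposite strand, whose mean signal was 413 with DMSO and 533 with erlotinib (log2 fold change 0.37), and 7.97% with the noncoding gene TYMSOS on the opposite strand (24.3 and 10.9, log2 fold change -1.11). NME1 shares 18.7% with the readthrough gene NME1-NME2, IMPDH2 shares 32.8% with an overlapping gene on its own strand, and TK2 shares 10.7% with a noncoding gene on the opposite strand. NME4 shares 15.6% with DECR2 and ADSL 11.1% with an overlapping gene, both on the member's own strand. DUT shares 14.5% with the noncoding gene DUT-AS1 on the opposite strand. Other, smaller overlaps are not listed here. The strand that was counted is not stated. Reads of TYMS, DUT or TK2 and of their neighbours on the opposite strand therefore cannot be told apart in the shared bases. In all, 12 members have pseudogenes named after them, among them DUT with 8, PAICS with 7 and HPRT1 and RRM2 with 3 each, and the values of such genes are uncertain where reads match a copy.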

How the data were processed

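RNA of HCC827 cells was sequenced in 3 libraries with DMSO and 3 with erlotinib. Per the submitters' processing notes and methods, the authors mapped reads to GRCh38 with Bowtie2 2.3.4, took uniquely mapped reads for each gene from featureCounts 1.6.3 and used DESeq2 1.18.1. The deposited table is described as raw counts, but its values are signal: whole reads divided by 1 size factor per library (0.882 to 1.08), a division and a counting strand that the sources used here do not state. Dividing by each library's step gave whole reads for 100% of values (tolerance 0.1). No column per sample was left out (0 unused), and 475 genes had no symbol. Reads over exon junctions can be lost, since Bowtie2 makes no spliced alignments.

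Log2(signal + 1) was fitted for 14215 genes, those whose mean signal reached 10, with limma 3.58.1 in R 4.3.3 with a variance trend (two-sided, Benjamini-Hochberg, threshold 0.05). The design named a count test for whole counts and this test otherwise. Alternatives were edgeR 4.0.16, DESeq2 1.42.0 and limma-voom on recovered reads, TMM or total-count scaling, pseudocounts of 0.1 and 10, no filter, 10 reads in every library, a threshold of 0.01, and each library left out. The limma and edgeR tests were tried on simulated counts, and the other alternatives and the permutation test were not. Values per library are given for paralog pairs and, in each step, the 2 members with the largest change. Of other lists up to 3 rises and 3 falls are named, and some of these are not reported here. Values per library outside this rule (RRM1, SAMHD1, MTHFD2, SLC29A1, VWF) and the promoters with 3 CCAAT were chosen after their values were seen. The members and lists were chosen with earlier results of these data known. Exon lengths came from GENCODE release 44, since the RefSeq table gives gene spans, and promoters from RefSeq. Figures used matplotlib 3.10.9 in Python 3.11.15.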

Additional observations from a re-analysis of the deposited data

How the results depend on the processing

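Over 16 alternatives the number of members that fell was 32 or 33 and the number that rose 2 or 3, while over all genes tested 3955 to 5140 fell and 4323 to 6156 rose. Scaling to the total count moved the median log2 fold change of all genes from 0.02 to 0.20 and that of the members from -1.26 to -1.08, a difference between them of -1.27 in place of -1.28. The medians then were -1.13 for PRPP synthesis, -1.23 for the purine ring, -1.05 for the GMP branch, -0.79 for pyrimidines, -1.82 for deoxynucleotide synthesis, -1.11 for deoxynucleotide salvage, -0.29 for purine and uridine salvage, -0.50 for the kinases and -0.94 for one-carbon supply, and UCK1 turned to 0.094. With no filter SAMHD1 entered and the median of deoxynucleotide salvage was -0.95. Of the values for single members 588 kept direction and side of the threshold, and the exceptions (RRM2B under 2 settings, UCK1 and GUK1) are given above.

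With each library left out in turn the median was -1.30 to -1.23 for the members, -1.44 to -1.36 for the purine ring, -1.28 to -1.13 for the GMP branch, -1.01 to -0.93 for pyrimidines, -0.52 to -0.45 for purine and uridine salvage, -0.76 to -0.58 for the kinases and -1.26 to -1.05 for one-carbon supply. The log2 ratios of paralogs kept their sign with a pseudocount of 10 and without each library. No paired analysis was possible because the erlotinib columns are numbered 4 to 6 and the labels 1 to 3.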
